A study of Mus musculus with 6 samples.

Results

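The genes described here are 10 genes of the integrated stress response and the unfolded protein response, taken by symbol from what is known of these pathways: Atf3, Atf4, Ddit3, Chac1, Trib3, Asns, Hspa5, Dnajb9, Xbp1 and Herpud1. All 10 were found among the 25755 genes measured in whole optic nerves of mice. Bulk RNA sequencing covered 6 mice, each NF1flox/flox;hGFAP-Cre, in which Cre driven by the human GFAP promoter removes Nf1 from neuroglial progenitors and their progeny. Mice 1 to 3 had a sham operation, an incision with no crush, and mice 4 to 6 had optic nerve crush (ON-CR). Surgery was at 6 weeks of age and the nerves were taken at 12 weeks, labelled as 3 months, from perfused mice. Both groups lack Nf1 in these cells, so a nerve with intact Nf1 is not part of the comparison. The paper reports that crush led to optic gliomas in mice of this genotype by the same age. Compared with sham surgery, it describes larger nerves with more dividing cells and more microglia. The ON-CR values may therefore include tumour tissue as well as injured nerve, and the part of each was not tested.

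These genes belong to a pair of linked programmes. In the integrated stress response, 4 kinases (Eif2ak1 to Eif2ak4) phosphorylate the translation initiation factor eIF2alpha. This lowers general protein synthesis and favours translation of ATF4, a transcription factor that induces genes for amino acid supply and, with CHOP (Ddit3), genes of prolonged stress. In the unfolded protein response, misfolded protein in the endoplasmic reticulum (ER) activates PERK (Eif2ak3), IRE1 (Ern1) and ATF6, which raise chaperones and degradation factors, partly through the spliced form of Xbp1. Optic nerve crush injures the axons of retinal ganglion cells, and the nerve itself holds oligodendrocytes, astrocytes, microglia and fibroblasts but not the neuronal cell bodies in the retina. The measurements are of RNA summed over each gene, so neither eIF2alpha phosphorylation, ATF4 protein nor the spliced and unspliced forms of Xbp1 were read. In whole nerve, fewer cells of a type and less RNA per cell cannot be told apart.

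The promoter elements by which these genes are usually grouped are shown for the members that hold them, in windows of at most 30 bases with the motif in capitals, 5′ to 3′ on the strand of the gene, from RefSeq promoters of GRCm38.p6. A promoter here is 250 bases before and 50 bases after the start. The first set holds the core of the element that ATF4 dimers are known to bind, TGATGNAA, searched on both strands. A RefSeq promoter was matched for all 10 members. The core lay in 5 of the 10 member promoters and in 3.97% of the 32851 promoters of this length that were searched. These, called all promoters below, leave out a chromosome that holds no member.
Atf3: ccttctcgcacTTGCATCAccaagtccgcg
Chac1: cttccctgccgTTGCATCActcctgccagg
Trib3: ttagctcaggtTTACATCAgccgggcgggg
Asns: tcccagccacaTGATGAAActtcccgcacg
Herpud1: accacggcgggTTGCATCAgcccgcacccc

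These windows lie at chr1:191183425-191183454 (minus strand, an intron of Atf3 in GENCODE), chr2:119351038-119351067 (plus strand, upstream of Chac1), chr2:152344028-152344057 (minus strand, reaching past the GENCODE start of Trib3), chr6:7693214-7693243 (minus strand, an exon of Asns) and chr8:94386306-94386335 (plus strand, upstream of Herpud1). Relative to the RefSeq start, the motifs begin at -110 in Atf3, -193 in Chac1, 14 in Trib3, -23 in Asns and -112 in Herpud1. The second set holds the ER stress elements ERSE (CCAAT, 9 bases of any kind, CCACG) and ERSE-II (ATTGG, 1 base of any kind, CCACG), searched on both strands, which were in 0.119% and 0.0365% of all promoters.
Hspa5: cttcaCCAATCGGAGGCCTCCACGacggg
Herpud1: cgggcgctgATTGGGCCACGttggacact

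The Hspa5 window is at chr2:34772020-34772048 (plus strand, in a GENCODE exon), with the motif at -65. The Herpud1 window is at chr8:94386368-94386396 (plus strand, upstream), with the motif at -52, so Herpud1 held an element of both kinds, which do not overlap. The letters TGACGTCA (1.79% of all promoters) and TGACGTGG (0.676%) were in none of the 10 windows searched. A match describes letters only.

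The genes that rose after ON-CR were Atf3 and Asns, and 4 further genes of the ATF4 side (Atf4, Ddit3, Chac1 and Trib3) had higher means without passing the test. On the ER side no member was called. Hspa5, Dnajb9 and Herpud1 had log2 fold changes between -0.15 and -0.09, and Xbp1 had a lower mean without passing the test. In all, 2 of 10 members passed an adjusted p of 0.05 in limma, both higher, where 2.1% of all genes passed, 0.971% higher and 1.13% lower. An unadjusted p at or under 0.05 was found for 7 of 10 members, 6 higher and 1 lower, where 15.6% of all genes had one. The groups did not overlap, with ON-CR higher, in 4 members, where 10.5% of all genes were of that kind, and with ON-CR lower in 2 members, where 11% were. The median log2 fold change of the members was 0.58 beside 0.03 over all genes. The members were chosen with earlier results of these data known, so setting them beside all genes is not an independent comparison. Values are normalized estimated counts, in which 1 read is worth 0.885 to 1.06. Fold changes and their standard errors (SE) are on the scale of log2(value + 1), and 95% intervals are for 1 gene at a time. With 3 mice against 3, an exact two-sided permutation test of a single gene cannot give a p below 0.1, so tests are from the fit across all genes.

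**Figure D1:**
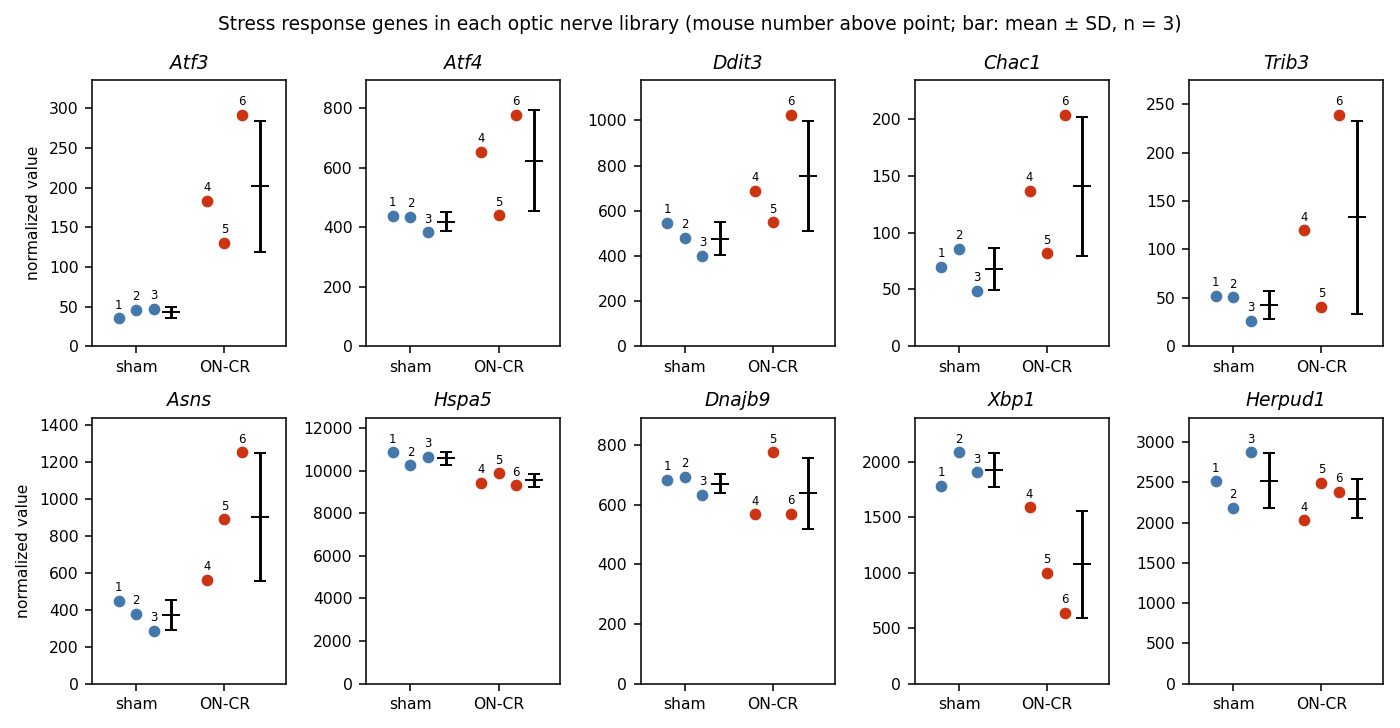
Normalized value of each of the 10 genes in each mouse (vertical axes from 0), with sham mice in blue, ON-CR mice in red, mouse numbers above the points and the mean with SD (n = 3) as a black bar. Atf3 and Asns are higher in every ON-CR mouse than in every sham mouse, Atf4, Ddit3, Chac1 and Trib3 are highest in mouse 6, and Xbp1 is lowest in mouse 6.

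Depth ranged from 19892368 to 23620387 estimated reads on genes in sham and from 17413625 to 18977836 in ON-CR libraries, so the deeper libraries were all sham. The tissue label was borne out by myelin genes. Mature oligodendrocyte markers (10 genes, led by Mbp, Mobp and Cnp) summed to 1022560 to 1562190 in sham and 498139 to 555968 in ON-CR mice, and 7 of 10 fell. Microglia markers rose in 3 of 8 genes, activated microglia markers in 9 of 11 and reactive astrocyte markers in 8 of 10, while 0 of 7 general astrocyte markers and 0 of 8 fibroblast markers were called in either direction by limma, with 3 and 4 of them at an unadjusted p under 0.05. The members were measured in this changed mixture, and its part in their values was not tested. Xist, the X-inactivation RNA, read 2.14 to 30.9 in sham and 2708 to 6357 in ON-CR mice. The Y-linked Ddx3y read 1291 to 1645 in sham mice and 976, 4.19 and 0 in ON-CR mice 4, 5 and 6. Mouse 4 thus held both transcripts at high levels, which the other 5 libraries did not, and whether its library holds RNA of more than 1 mouse was not tested. The paper used more than 1 mouse per sample for PCR of optic nerve RNA, and does not say so for the sequencing. Each library is counted as 1 mouse, as labelled. Without mouse 4, the members called were Atf3 (log2 fold change 2.18, limma adjusted p = 0.0208), Asns (1.53, adjusted p = 0.0109) and Xbp1 (-1.27, adjusted p = 0.0126). Sex and surgery cannot be told apart in any value below, although all 10 members are autosomal.

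Atf3 encodes a stress-inducible transcription factor of the ATF family that is known as a marker of axon injury in neurons and is also induced in glia. It spans chr1:191170296-191218039 on the minus strand in GRCm38. Its value was 35.0, 46.0 and 47.0 in sham mice 1 to 3 and 183, 130 and 292 in ON-CR mice 4 to 6. Every ON-CR mouse was above every sham mouse, and mouse 6 was highest. The means were 42.7 ± 6.64 (SD, n = 3) and 202 ± 82.4 (SD, n = 3). Atf3 rose 4.43-fold (95% interval 2.77 to 7.10), a log2 fold change of 2.15 (SE 0.31, limma adjusted p = 0.00733). Without mouse 6 the log2 fold change was 1.84 and the adjusted p 0.0645.

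Atf3 is also induced as an immediate early gene, and other genes of that class were read beside it. Of 13 immediate early genes, 4 rose and 0 fell, with a median log2 fold change of 0.31. The 4 are transcription factors: Fos (log2 fold change 2.06, SE 0.23, limma adjusted p = 0.00279), Egr2 (2.04, SE 0.38, adjusted p = 0.0250), Junb (1.69, SE 0.31, adjusted p = 0.0248) and Egr1 (1.21, SE 0.26, adjusted p = 0.0426), chosen after their values were seen. The 3 most abundant genes of the class did not pass: Jun had -0.32, Btg2 0.45 and Zfp36 0.26. Fos read 191, 120 and 247 in sham and 774, 703 and 767 in ON-CR mice. Its ON-CR values lay close together, and those of Atf3 did not. The part of immediate early induction in the values of Atf3 was not tested. Without mouse 6, none of the 4 passed (adjusted p 0.0502 to 0.231). Junb, Egr1 and Egr2 also lost their call without sham mouse 1 (0.0760 to 0.149), sham mouse 2 (0.116 to 0.184) or ON-CR mouse 4 (0.0676 to 0.106), and Egr2 without sham mouse 3 (0.0582).

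Asns encodes asparagine synthetase, a classical ATF4 target that makes asparagine from aspartate and glutamine. It spans chr6:7675169-7693254 on the minus strand. Its value was 449, 377 and 286 in sham mice 1 to 3 and 564, 891 and 1254 in ON-CR mice 4 to 6. The groups did not overlap, and mouse 6 was again highest, but here mouse 5 was above mouse 4. Means were 371 ± 81.9 (SD, n = 3) in sham and 903 ± 345 (SD, n = 3) in ON-CR mice. Asns rose 2.35-fold (95% interval 1.56 to 3.55), a log2 fold change of 1.23 (SE 0.27, limma adjusted p = 0.0471). This call was close to the threshold. It was lost with any 1 of 5 mice left out, the adjusted p being 0.10, 0.192 and 0.160 without sham mice 1, 2 and 3, 0.0548 without mouse 5 and 0.220 without mouse 6, and it was 0.0109 without mouse 4.

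Atf4 is the transcription factor at the centre of the response and is regulated mainly at translation. It spans chr15:80255184-80257541 on the plus strand. It read 438, 436 and 383 in sham mice and 653, 440 and 778 in ON-CR mice 4, 5 and 6. Mouse 5 was at the level of the highest sham mouse, 440.3 against 438.3, and the other two were well above. The log2 fold change was 0.54 (SE 0.20, 95% interval 0.10 to 0.98, limma adjusted p = 0.219). Without mouse 5 it was 0.77, with an adjusted p of 0.0232, and without mouse 6 it was 0.36 with 0.514.

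Ddit3 encodes CHOP, the transcription factor that ATF4 induces and that promotes cell death and recovery of translation under prolonged stress. Its longest model spans chr10:127290774-127296288 on the plus strand. It read 546, 480 and 401 in sham mice and 688, 548 and 1025 in ON-CR mice 4, 5 and 6. The pattern was that of Atf4, with mouse 5 level with the highest sham mouse, at 548.3 against 546.0. The log2 fold change was 0.63 (SE 0.22, 95% interval 0.14 to 1.11, limma adjusted p = 0.192). Without mouse 5 it was 0.83 with an adjusted p of 0.0466, and without mouse 6 it was 0.38 with 0.466. A second model of the same symbol and exons of Gm4189 and Mars1 on the other strand overlap Ddit3. The library kit does not mark strand, so their reads cannot be told apart by strand. Mars1 itself, the methionyl-tRNA synthetase, had a log2 fold change of -0.04 (limma adjusted p = 0.926).

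Chac1 encodes an enzyme that degrades glutathione and is induced by ATF4 and CHOP. It spans chr2:119351229-119354381 on the plus strand. It read 70.0, 85.9 and 48.8 in sham mice and 137, 81.8 and 204 in ON-CR mice 4, 5 and 6. Mice 4 and 6 were above all sham mice, and mouse 5 lay within the sham range. Chac1 had a log2 fold change of 0.97 (SE 0.34, 95% interval 0.21 to 1.74, limma adjusted p = 0.201).

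Trib3 encodes a pseudokinase that CHOP and ATF4 induce and that restrains ATF4 in turn. It spans chr2:152337422-152344032 on the minus strand. Its value was 52.0, 50.5 and 26.3 in sham mice and 120, 40.9 and 239 in ON-CR mice 4, 5 and 6. The order was that of Chac1, with mouse 5 inside the sham range and the other two far above it. The log2 fold change of Trib3 was 1.34 (SE 0.55, 95% interval 0.12 to 2.57, limma adjusted p = 0.275), the widest interval among the 10. Without mouse 5, Chac1 had 1.31 with an adjusted p of 0.0430 and Trib3 had 2.02 with 0.020. Without mouse 6, Chac1 had 0.66 with an adjusted p of 0.504 and Trib3 had 0.76 with 0.607. Atf4, Ddit3, Chac1 and Trib3 were each called in 1 of 17 alternatives, the fit without mouse 5. That fit called 854 genes over the whole table, beside 540 with all mice.

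The ON-CR mice thus stood in one order, 6 above 4 above 5, for Atf3, Atf4, Ddit3, Chac1 and Trib3, and in the order 6, 5, 4 for Asns. In log2 units relative to the sham mean, Trib3 was at 1.52, -0.01 and 2.51 in mice 4, 5 and 6, Chac1 at 1.03, 0.29 and 1.60, and Atf4 at 0.64, 0.07 and 0.89. Atf3 was at 2.09, 1.60 and 2.76, so in mouse 5 it was well above the sham mean where Atf4 and Trib3 were not. These 6 genes share their libraries, so the order seen in all but Asns is 1 observation about 3 mice and not 1 per gene. The coefficient of variation over ON-CR mice was 27.4% for Atf4 and 74.9% for Trib3, the lowest and the highest among the 6, and over sham mice it was 7.41% and 33.6% for the same genes. Mouse 5 had the fewest estimated reads, 17413625, and the highest sum of the 11 brain neuron markers. That sum was 5373, 2135 and 1749 in sham and 1774, 11484 and 3773 in ON-CR mice, with 0 of 11 called and 0 at an unadjusted p under 0.05. The part of these features in the low values of mouse 5 was not tested.

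**Figure D2:**
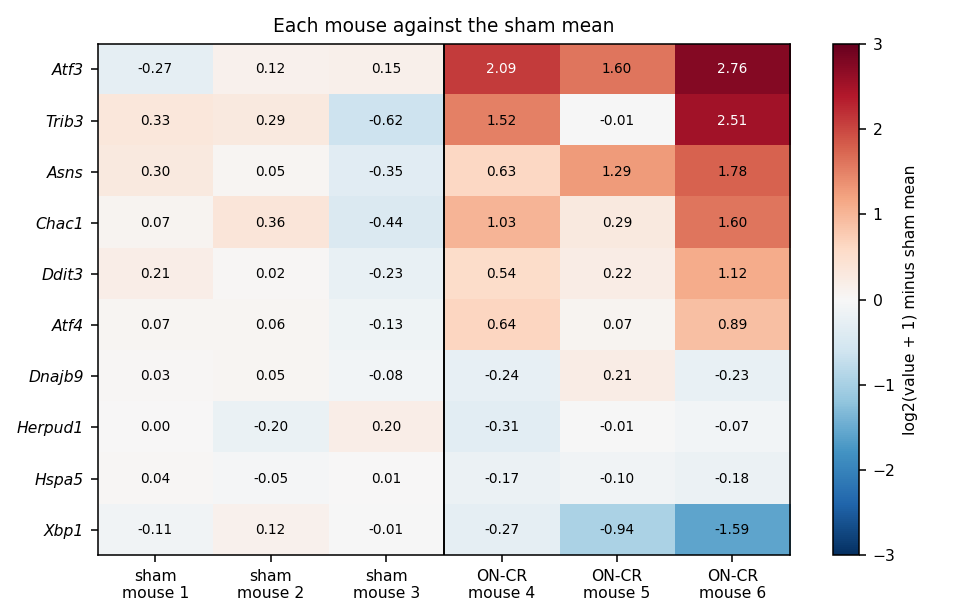
Difference of each mouse from the sham mean for the 10 genes, as log2(value + 1) minus the sham mean, with red above and blue below it, sham mice left of the line and ON-CR mice right of it. Mouse 5 is near 0 for Trib3 (-0.01) and Atf4 (0.07) but at 1.60 for Atf3 and 1.29 for Asns, and Xbp1 goes from -0.27 in mouse 4 to -1.59 in mouse 6.

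Xbp1 encodes the transcription factor that IRE1 activates by splicing and that is needed for the secretory machinery of plasma cells. It spans chr11:5520659-5525893 on the plus strand. It read 1780, 2083 and 1904 in sham mice and 1587, 996 and 635 in ON-CR mice 4, 5 and 6. Every ON-CR mouse was below every sham mouse, but mouse 4 lay near the sham group and mouse 6 was lowest. The means were 1922 ± 153 (SD, n = 3) and 1073 ± 481 (SD, n = 3), and the log2 fold change was -0.94 (SE 0.26, 95% interval -1.52 to -0.35, limma adjusted p = 0.110). Without mouse 4 it was -1.27 with an adjusted p of 0.0126, and without mouse 6 it was -0.61 with 0.307.

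Since plasma cells and secretory epithelium are rich in Xbp1, their markers were read beside it. The 10 plasma cell markers, led by Igkc, Igha and Jchain, summed to 2279, 945 and 3164 in sham mice and to 1780, 523 and 119947 in ON-CR mice 4, 5 and 6. Immunoglobulin transcripts were thus very abundant in mouse 6, the library with the lowest Xbp1. The 10 secretory epithelium markers measured of 11 listed, led by Bpifa1, Wfdc2 and Krt18, summed to 372, 242 and 8594 in sham and to 126, 6032 and 6468 in ON-CR mice. In neither list was a gene called by limma, and 0 of 10 in each had an unadjusted p under 0.05. The part of these transcripts and of the fallen myelin genes in the values of Xbp1 was not tested.

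Hspa5 encodes BiP, the main HSP70 chaperone of the ER lumen and the usual marker of the unfolded protein response. It spans chr2:34771970-34777547 on the plus strand. It read 10857, 10252 and 10635 in sham mice and 9422, 9873 and 9310 in ON-CR mice. The groups did not overlap, with all ON-CR mice lower, but the distance was small. Its log2 fold change was -0.15 (SE 0.10, 95% interval -0.37 to 0.07, limma adjusted p = 0.519), so the upper end of the interval was a 1.05-fold increase. Hspa5 varied least of the 10 genes, with a coefficient of variation of 2.89% over sham and 3.13% over ON-CR mice.

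Dnajb9 encodes ERdj4, an ER co-chaperone of BiP and a target of XBP1. It spans chr12:44205559-44210326 on the minus strand. It read 683, 693 and 634 in sham and 567, 776 and 570 in ON-CR mice 4, 5 and 6. Mouse 5 was the highest of all 6 and the other two ON-CR mice were the lowest. The log2 fold change was -0.09 (SE 0.15, 95% interval -0.42 to 0.24, limma adjusted p = 0.836), and it was 0.04 where libraries were scaled to equal totals.

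Herpud1 encodes an ER membrane protein of the degradation machinery that carries both kinds of element shown above. It spans chr8:94386438-94395377 on the plus strand. It read 2514, 2181 and 2874 in sham and 2027, 2492 and 2381 in ON-CR mice. The groups overlapped. Herpud1 had a log2 fold change of -0.13 (SE 0.13, 95% interval -0.43 to 0.17, limma adjusted p = 0.698). For Hspa5, Dnajb9 and Herpud1 the upper ends of the fold intervals were 1.05, 1.19 and 1.12. The lower ends for Atf3 and Asns, the members that passed the test, were higher, at 2.77 and 1.56. Those for Atf4, Ddit3, Chac1 and Trib3 all lay below the upper end for Dnajb9. The intervals of these genes thus overlapped that of Dnajb9, and the ATF4 and ER sides were not cleanly separated.

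**Figure D3:**
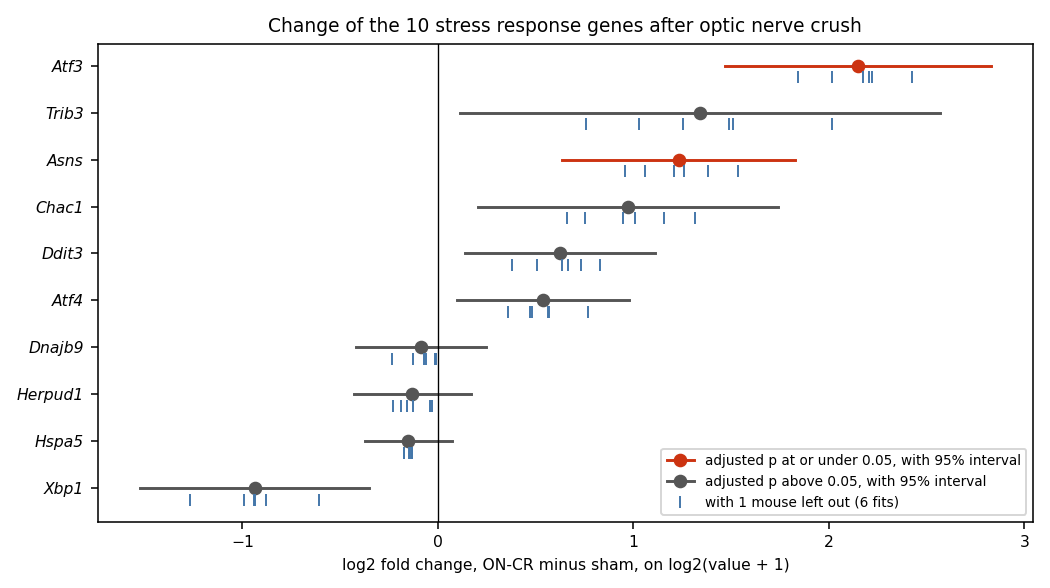
Log2 fold change (ON-CR minus sham, on log2(value + 1), horizontal axis) of each gene with its 95% interval, in red where the adjusted p was at or under 0.05, and with ticks for the 6 fits that leave out 1 mouse. Atf3 (2.15) and Asns (1.23) are red, the intervals of Hspa5, Dnajb9 and Herpud1 cross 0, and that of Xbp1 (-0.94) lies below it.

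Per kilobase of exon, the sham levels ran from Hspa5 (2502), Herpud1 (1081) and Xbp1 (592) through Ddit3 (278), Dnajb9 (263), Atf4 (178) and Asns (135) to Chac1 (41.7), Trib3 (20.2) and Atf3 (19.8). The sham ranges of the neighbours Ddit3 and Dnajb9, Atf4 and Asns, and Trib3 and Atf3 overlapped, and the other neighbours did not. In ON-CR mice the order was Hspa5 (2255), Herpud1 (986), Ddit3 (440), Xbp1 (330.3), Asns (330.3), Atf4 (265), Dnajb9 (250.1), Atf3 (93.7), Chac1 (85.9) and Trib3 (62.6). Apart from Hspa5, Herpud1 and the step from Dnajb9 to Atf3, all neighbours in that order overlapped. Hspa5 and Herpud1 were the most abundant in both groups, and Atf3, Chac1 and Trib3 the least. The fewest reads behind a member were 28, for Trib3 in sham mouse 3, above a floor of 3 reads, and Atf3 rested on 33 to 52 reads in sham mice and 124 to 281 in ON-CR mice.

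All 4 kinases that start the integrated stress response were measured, and 0 were called by limma (1 higher and 1 lower at an unadjusted p under 0.05). Eif2ak2 encodes PKR, the kinase for double-stranded RNA that interferon induces. It read 552, 541 and 636 in sham and 962, 668 and 870 in ON-CR mice, with no overlap. The log2 fold change of Eif2ak2 was 0.52 (limma adjusted p = 0.135). It was called in 1 of 17 alternatives, without mouse 5 (0.0307). Eif2ak1, the haem-regulated kinase, read 804 to 844 in sham and 631 to 696 in ON-CR mice, again with no overlap, and had -0.32 (adjusted p = 0.205). Eif2ak3, which encodes PERK, had 0.01 and Eif2ak4, the GCN2 kinase that senses uncharged tRNA, had 0.23. Of the 12 subunits and regulators of eIF2, eIF2B and the eIF2alpha phosphatase, 0 were called, with 2 higher and 0 lower at an unadjusted p under 0.05 and a median of 0.05. Eif2s2, the beta subunit of eIF2, had 0.39 (adjusted p = 0.145), the X-linked gamma subunit Eif2s3x had 0.41, and Dnajc3, an inhibitor of the eIF2alpha kinases, had -0.21.

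Of 25 other genes known as targets of ATF4 or CHOP, 0 rose and 1 fell, with a median log2 fold change of 0.34, beside 0.03 over all genes. Above 0 were 17 of 25, where 13608 of all 25755 genes were. At an unadjusted p under 0.05 there were 8 higher and 5 lower. The one that fell was Slc6a9, the glycine transporter GLYT1 of glia, which read 7973, 8868 and 6881 in sham and 5610, 4641 and 4417 in ON-CR mice (log2 fold change -0.69, SE 0.13, limma adjusted p = 0.0294). Its groups did not overlap, but the adjusted p was 0.112, 0.180 and 0.191 without sham mouse 1, sham mouse 2 and ON-CR mouse 6. The most abundant others were Slc38a2, a transporter of small neutral amino acids, at -0.30 and Nupr1, a stress-induced chromatin protein, at -0.04.

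Members of the same list with higher means, chosen after their values were seen, did not pass in the reported fit, and some passed in others. Gdf15, a secreted stress cytokine, read 3.18, 11.5 and 2.82 in sham mice, where mice 1 and 3 were at the floor of 3 reads, and 46.9, 17.8 and 96.6 in ON-CR mice 4, 5 and 6. It had a log2 fold change of 2.93 (SE 0.68, limma adjusted p = 0.0607), and its ON-CR mice stood in the order 6, 4, 5, as for Atf3. Slc7a1, the cationic amino acid transporter, had 0.80 (adjusted p = 0.0568) and Slc7a5, the large neutral amino acid transporter, 0.65 (adjusted p = 0.0830), both with no overlap. With equal library totals, 3 genes of the list were called higher, namely Slc7a5 (adjusted p = 0.0363), Slc7a1 (0.0367) and Gdf15 (0.0498). Gdf15 and Slc7a1 were also called in the robust fit (0.0409 and 0.0328) and with sample quality weights (0.0413 and 0.0494). Without mouse 5, again 3 genes were called higher: Gdf15 (adjusted p = 0.0146), Eif4ebp1 (0.0201), an inhibitor of cap-dependent translation, and Slc7a1 (0.0467). Of the 17 alternatives, Gdf15 and Slc7a1 were each called in 4, and Slc7a5 and Eif4ebp1 in 1. With 1 mouse left out, the adjusted p of Gdf15, Slc7a1, Slc7a5 and Eif4ebp1 reached 0.284, 0.254, 0.307 and 0.451. The list's median relative to the sham mean was 0.16, 0.07 and 0.57 in mice 4, 5 and 6.

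Of 8 enzymes of serine, glycine, proline and one-carbon synthesis that ATF4 is known to induce, 0 were called, with 2 higher and 2 lower at an unadjusted p under 0.05 and a median of 0.24. Phgdh and Psat1, the first enzymes of serine synthesis, had lower means, at -0.28 (adjusted p = 0.291) and -0.53 (adjusted p = 0.0616), and neither overlapped between groups. Psat1 was called lower in 2 of 17 alternatives, the robust fit (limma adjusted p = 0.0413) and sample quality weights (0.0449). Mthfd2, a mitochondrial folate enzyme, had 0.62 (adjusted p = 0.254) and read 1329 in mouse 6, 1034 in mouse 4 and 617 in mouse 5, within the sham range of 529 to 681 only in mouse 5. It was called in 1 of 17 alternatives, without mouse 5 (limma adjusted p = 0.0144).

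The ER side of the pathway showed no call in any list. Among 6 sensors and site proteases, 0 were called (0 higher and 2 lower at an unadjusted p under 0.05), with a median of 0.08. Mbtps1, the protease that cleaves ATF6, had -0.31, Atf6b had -0.38 and Atf6 had 0.33. Of 20 ER chaperones and folding enzymes, 18 had a log2 fold change below 0, where 12147 of all 25755 genes did. In this list 0 were called, and the median was -0.15, with 1 higher and 3 lower at an unadjusted p under 0.05. Pdia3, a disulphide isomerase, had -0.15, Canx, the lectin chaperone calnexin, -0.12 and Hsp90b1, the HSP90 of the ER, -0.07. Of the 2 genes above 0, Manf, a secreted ER stress protein, had 0.33 (adjusted p = 0.183) with no overlap, and Ppib had 0.11. Scaling to equal library totals shifted the median of all genes by 0.12, to 0.15, and that of the chaperones to -0.02. Such scaling moves all genes by nearly the same amount, so it cannot test whether the chaperone median lies below that of all genes. The count of chaperones below 0 does depend on it.

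Of 18 genes of ER-associated degradation, 0 were called, with 0 higher and 2 lower at an unadjusted p under 0.05 and a median of -0.02. Vcp, the ATPase that extracts proteins from the membrane, had -0.18, Os9, a lectin, -0.26 and Selenos -0.19. The 19 genes of ER translocation and vesicle transport known to depend on XBP1 had a median of -0.10, with 0 called and 0 higher and 3 lower at an unadjusted p under 0.05. Ssr1, of the translocon, had -0.27, Spcs2, of the signal peptidase, -0.15 and Sec62 0.03. With equal library totals the medians of these lists were 0.11 and 0.03, beside 0.15 over all genes. All moved by nearly the same amount, so this scaling does not test their order. Over the 137 different genes of the 10 pathway lists, 0 were called higher and 1 lower, and the median was -0.01. A log2 fold change above 0 was found for 68 of them, where 13608 of all 25755 genes had one.

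**Figure D4:**
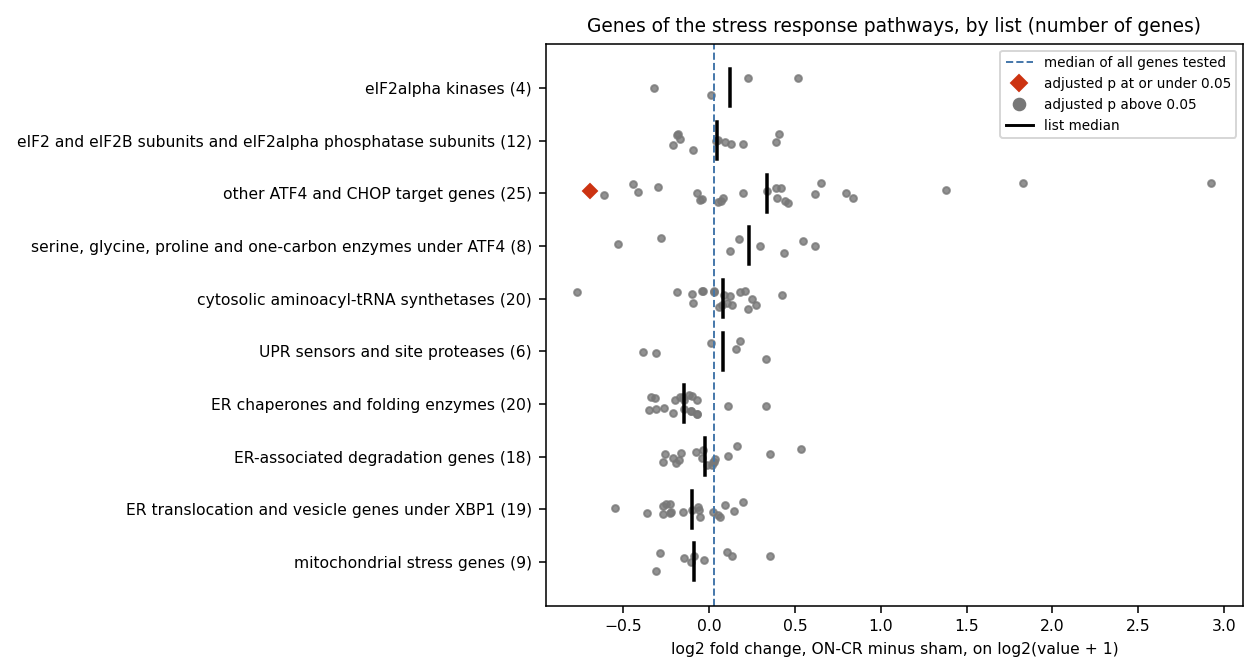
Log2 fold change (ON-CR minus sham, on log2(value + 1), horizontal axis) of each gene in the 10 pathway lists, the 10 members left out, with list medians as black bars and the median of all genes as a dashed line. The list of other ATF4 and CHOP targets spans -0.69 (Slc6a9, the diamond) to 2.93 (Gdf15), while ER chaperones stay between -0.35 and 0.33.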

How the data were processed

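Bulk RNA of optic nerves was sequenced in 6 SMARTer Ultra Low libraries, made with 10 ng of total RNA. The authors aligned and quantified reads with DRAGEN against Ensembl release 101, assigned them to mm10 genes of Ensembl release 102, median-normalized the gene counts (Partek Flow 10.0) and tested with DESeq2. The deposited values are this normalized signal, in estimated counts scaled by library. Of these, 67.4% to 70.5% per library were whole multiples of 1 read within 0.05 reads, so no count test was run. Depth was 17413625 to 23620387 estimated reads, and the floor of 3 reads covers counting error only.

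The test was limma (version 3.58.1, R 4.3.3) applied to log2(value + 1), using a mean trend and Benjamini-Hochberg adjustment over 25755 genes, unfiltered. A call is an adjusted p at or under 0.05, and every adjusted p is from limma. The fit was tested on simulated data. Each library, labelled as 1 mouse, is 1 replicate. Exon lengths and positions are from GENCODE vM21 on GRCm38, and promoters from RefSeq.

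The 10 members, the 10 pathway lists and the 12 lists of cell types and states were chosen with earlier results of these data known. Of the mature oligodendrocyte markers, 1 gene is not reported here and was left out of that list. From each pathway list, the text names every called gene and otherwise the most abundant, up to 3, and from cell lists up to the 3 most abundant. Any further gene was picked with its values in view. Photoreceptor (5 of 6 genes measured) and skeletal muscle markers (6 genes) had 0 called by limma, with 1 and 0 at an unadjusted p under 0.05, and sums of 53.1 to 105 and 78.4 to 257. The alternatives were filters on low values, pseudocounts, scalings, limma options and each mouse left out.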

Additional observations from a re-analysis of the deposited data

How the results depend on the processing

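Each comparison was repeated under 17 alternatives, 6 of them leaving out 1 mouse. Of 170 repeated member values, 152 kept their direction and their side of the threshold, 12 lost a call, 5 gained one and 1 reversed. The reversed value was that of Dnajb9, 0.042 with libraries at equal totals. The members called numbered 1, Atf3, with a mean value of at least 10, with at least 10 in 3 mice, at pseudocount 0.1 and in the robust fit, and 0 without a mean trend. Genes called numbered 540 in the reported fit, with 46.3% higher, 616 with 68.3% higher at equal totals, and 7 without a mean trend. With 1 mouse left out they numbered 67 to 854, and the members called 0 to 5. The lowest counts came without mouse 6 and the highest without mouse 5. Without sham mice 1, 2 and 3, genes called were 192, 123 and 258. The cause was not tested. Asns was called in 7 of 17 alternatives and Atf3 in 15. No paired analysis was possible because mice carry different numbers in the 2 groups. Depth did not allow Gdf15 to be told from the floor in 2 sham mice. Labels do not say whether a library is 1 nerve or a pair. The p-values rest on the spread between these mice only, with the variance of each gene drawn toward a trend over all genes.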

Other observations

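Of 20 cytosolic aminoacyl-tRNA synthetases, which charge tRNAs with amino acids and include ATF4 targets, 0 were called by limma. At an unadjusted p under 0.05 there were 1 higher and 1 lower. The median log2 fold change was 0.08, and 14 were above 0, where 13608 of all 25755 genes were. The most abundant were Eprs at 0.27, Sars at 0.09 and Nars at 0.25. Gars, the glycyl-tRNA synthetase, went the other way, with 613, 692 and 625 in sham and 478, 298 and 377 in ON-CR mice (log2 fold change -0.77, SE 0.18, limma adjusted p = 0.0573). It was singled out after its values were seen. Its adjusted p was 0.0266 without mouse 4, 0.0328 in the robust fit and 0.0494 with sample quality weights. Gars was thus called in 3 of 17 alternatives, and with 1 mouse left out its adjusted p reached 0.254.

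Of 9 genes of mitochondrial stress, which can feed into the integrated stress response, 0 were called, with 1 higher and 1 lower at an unadjusted p under 0.05 and a median of -0.09. The matrix chaperone Hspd1 had 0.10, Hspa9 had -0.09 and the protease subunit Clpp had -0.03. Hspe1, the partner of Hspd1, read 1090.3 to 1168 in sham and 1352 to 1600.1 in ON-CR mice with no overlap (log2 fold change 0.35, limma adjusted p = 0.164). Dele1, which relays mitochondrial stress to the kinase Eif2ak1, had -0.31 (limma adjusted p = 0.236).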
